A study of Mus musculus with 8 samples.

Results

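The genes described here are 35 genes of proliferation and mitosis, chosen by name from the cell cycle machinery and read as rows of a table of 28295 genes in mouse fat. All 35 were in the table, and 34 of them reached the mean of 0.5 FPKM (a level scaled to exon length and to the mapped fragments of the library) that was required for testing. The tissue was epididymal white adipose tissue, the visceral fat pad beside the epididymis, of male mice that had eaten a Western diet for 8 weeks and were fasted for 6 h before collection. Of the 8 RNA-seq libraries, 4 were labelled wild type (WT), which carry the floxed Cul3 alleles on both chromosomes without Cre, and 4 were labelled knockout (KO), which carry the same 2 alleles with an AdipoQ-Cre transgene. The adiponectin promoter drives Cre in adipocytes, so the other cells of the pad keep Cul3 in this model. Age and strain background are not given in the sources used here, and the labels do not say whether libraries of a group came from separate animals. The p-values therefore measure the spread between these libraries.

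Cells enter the cycle when D-type cyclins, and after them E-type cyclins, activate kinases that release E2F transcription factors from the retinoblastoma protein. E2F then turns on the genes that copy DNA, and a later wave of transcription supplies CDK1, its cyclins and the spindle proteins of mitosis, many of which the anaphase-promoting complex destroys as the cell divides. Mature adipocytes are post-mitotic, and the dividing cells in fat of obese mice include preadipocytes, macrophages and endothelial cells. Cullin 3 itself holds ubiquitin ligases together, and cyclin E is one of the proteins known to be degraded through it. In whole tissue, fewer cells of a type and less RNA per cell cannot be told apart.

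The libraries held 15.2 to 19.7 M reads (M is 1000000) in listed genes, as recovered from the FPKM values. Those reads made up 74.1% to 78.7% of the total each library was scaled to in the WT-labelled group and 62.6% to 66.1% in the KO-labelled group, so the scaling matters for small differences. Cul3 (ENSMUSG00000004364, chr1:80264923-80340480 in GRCm38) was not lower in the KO-labelled libraries, at 10.6, 11.2, 13.2 and 12.99 FPKM against 11.4, 9.66, 12.4 and 11.5 in the WT-labelled ones (limma log2 difference 0.09 ± 0.10 SE, adjusted p = 0.52; KO over WT ratio 0.908 to 1.25 as its 95% interval). The groups are therefore named by their labels throughout. This value covers all exons of Cul3 and all cells of the pad, and the exons between the lox sites are not given in the sources used here. Over all 14400 genes tested, 1689 (11.7%) were higher and 2683 (18.6%) were lower in the KO-labelled libraries at an adjusted p below 0.05, with a median log2 difference of -0.02. With each library scaled to the same sum over listed genes, that median was 0.21 and the split was 4217 higher (29.3%) and 1180 lower (8.19%). Scaling to the reads in listed genes gave a median of 0.19.

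Of the 35 genes, 5 were lower in the KO-labelled libraries, none was higher, 29 passed no threshold and 1, Cenpf, was under the level for testing. The 5 were the cyclins Ccnd1, Ccnd2, Ccnd3 and Ccne1 and the transcription factor E2f1, all regulators of entry into S phase. The same 5 were the members whose KO-labelled libraries all lay below every WT-labelled one, and no member had all KO-labelled libraries above. Among all genes tested, 19.1% had every KO-labelled library below and 12.1% every one above. A share of 5 in 34 tested members is near the 18.6% called lower among all genes, and what follows is the split by role. Of the 6 regulators of S-phase entry 5 were called, with a median log2 difference of -0.54. Of the 29 genes of DNA replication, nucleotide supply and mitosis none of the 28 tested was called in either direction, with a median of -0.02. limma gave 0 of the 28 also at an unadjusted p below 0.05, as did voom on the recovered reads, and the smallest unadjusted limma p was 0.152. These 28 tests are not separate, because WT-labelled library 4 was the highest of all libraries for 27 of the 29 genes. The limma SEs ran from 0.113 (Mcm7) to 0.341 (Mcm6) for the 28, and from 0.091 (Ccnd2) to 0.157 (E2f1) for the regulators. A difference of a given size is harder to call at a larger SE, and the part of this in the split by role was not tested. Of the 29, 12 had a positive and 17 a negative difference, and in 18 the KO-labelled values all lay inside the WT-labelled range.

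**Figure D1:**
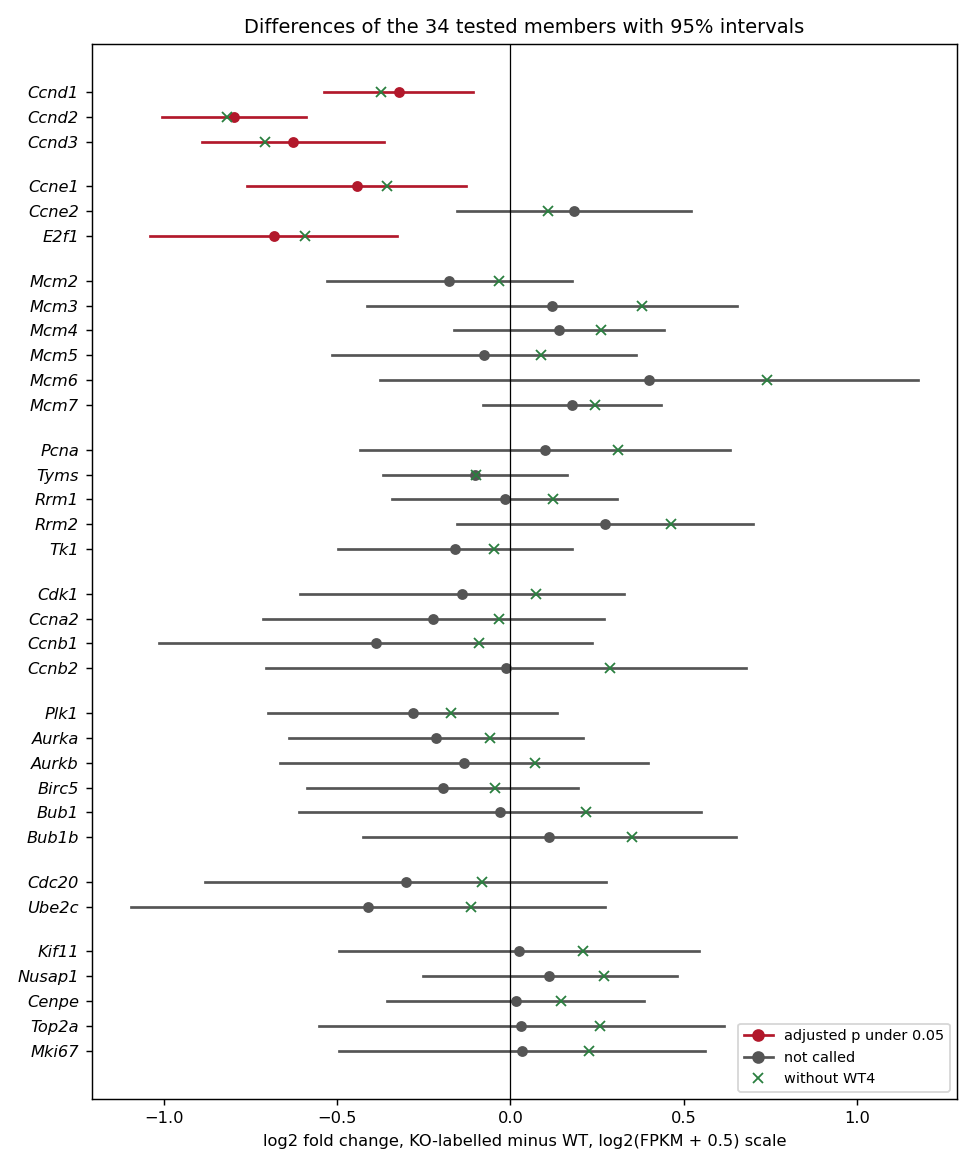
Log2 difference in log2(FPKM + 0.5), KO-labelled minus WT-labelled, for the 34 tested genes in order of role (points, red where called, with the limma 95% interval as bars), and the same difference without WT-labelled library 4 (green crosses). Ccnd1, Ccnd2, Ccnd3, Ccne1 and E2f1 lie below 0 with intervals that do not reach it, the genes of replication and mitosis lie between -0.41 and 0.40 with intervals across 0, and most of their crosses lie to the right of their points.

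The D-type cyclins bind CDK4 and CDK6 and carry growth signals into the cycle. Ccnd2 (ENSMUSG00000000184, chr6:127125162-127152193), the most abundant of the 35 genes, was listed at 27.8, 29.6, 24.2 and 25.6 FPKM in WT-labelled libraries 1 to 4 and at 15.5, 16.1, 13.5 and 15.8 FPKM in KO-labelled libraries 1 to 4. Every KO-labelled value was well under the lowest WT-labelled one, and the group means were 26.8 ± 2.41 and 15.2 ± 1.19 FPKM (SD, n = 4 each), a ratio of 0.567. The limma log2 difference was -0.80 ± 0.09 (SE; adjusted p = 0.000506), over 3066 to 6679 reads a library. Ccnd3 (ENSMUSG00000034165, chr17:47505051-47599691) was at 9.84, 12.04, 9.66 and 8.25 FPKM in the WT-labelled libraries and at 6.64, 6.11, 5.47 and 6.67 in the KO-labelled ones. Its groups did not overlap either, and its log2 difference was -0.63 ± 0.12 (SE; adjusted p = 0.00474). Both genes passed the threshold under all 22 other settings tried, with largest adjusted p-values of 0.0104 for Ccnd2 and 0.0411 for Ccnd3.

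Ccnd1 (ENSMUSG00000070348, chr7:144929931-144939925), the D-type cyclin best known as a target of mitogen signalling, showed a smaller difference. Its WT-labelled values were 7.84, 6.99, 8.57 and 6.71 FPKM and its KO-labelled values 5.33, 6.52, 5.81 and 5.97. The groups lay close together without overlap, at a lowest WT-labelled value of 6.71 and a highest KO-labelled value of 6.52. The log2 difference was -0.32 (95% interval -0.54 to -0.11, adjusted p = 0.0326). It lost the call without any one of WT-labelled libraries 1 and 3 or KO-labelled libraries 1, 3 and 4, at adjusted p-values from 0.0575 to 0.0877, and it was -0.07 (adjusted p = 0.636) with equal listed-gene sums. The 3 D-type cyclins together summed to 45.5, 48.7, 42.4 and 40.6 FPKM in the WT-labelled and 27.4, 28.8, 24.7 and 28.4 FPKM in the KO-labelled libraries, a ratio of group means of 0.617, or 0.748 after that scaling.

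The E-type cyclins activate CDK2 at the start of S phase, and E2F1 is an activator of the replication genes. E2f1 (ENSMUSG00000027490, chr2:154559407-154569892) was at 4.71, 5.04, 5.31 and 6.59 FPKM in the WT-labelled libraries and at 3.86, 3.82, 2.80 and 2.38 in the KO-labelled ones. All 4 KO-labelled values were lower than all 4 WT-labelled ones, on 186 to 511 reads. The log2 difference was -0.68 ± 0.16 (SE; adjusted p = 0.0122), and with equal listed-gene sums it was -0.44 (adjusted p = 0.0686). Ccne1 (ENSMUSG00000002068, chr7:38097984-38107534), on only 60 to 150 reads, had WT-labelled values of 1.97, 1.51, 1.64 and 2.29 FPKM and KO-labelled values of 1.30, 1.41, 0.931 and 1.26. Its groups lay next to each other without overlap, and the log2 difference of -0.44 (95% interval -0.76 to -0.13, adjusted p = 0.0409) lost the call without any single library other than WT-labelled library 2 (adjusted p 0.0535 to 0.104). Ccne2, its paralog, was at 1.17, 1.13, 1.52 and 0.943 FPKM against 1.12, 1.25, 1.52 and 1.80. The Ccne2 groups overlapped, and the log2 difference was 0.18 (95% interval -0.155 to 0.52, adjusted p = 0.38). For all 5 called genes the exact two-sided permutation test over libraries gave p = 0.0286, the smallest that 4 against 4 allows. That value follows from groups that do not overlap, so it is no separate support.

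**Figure D2:**
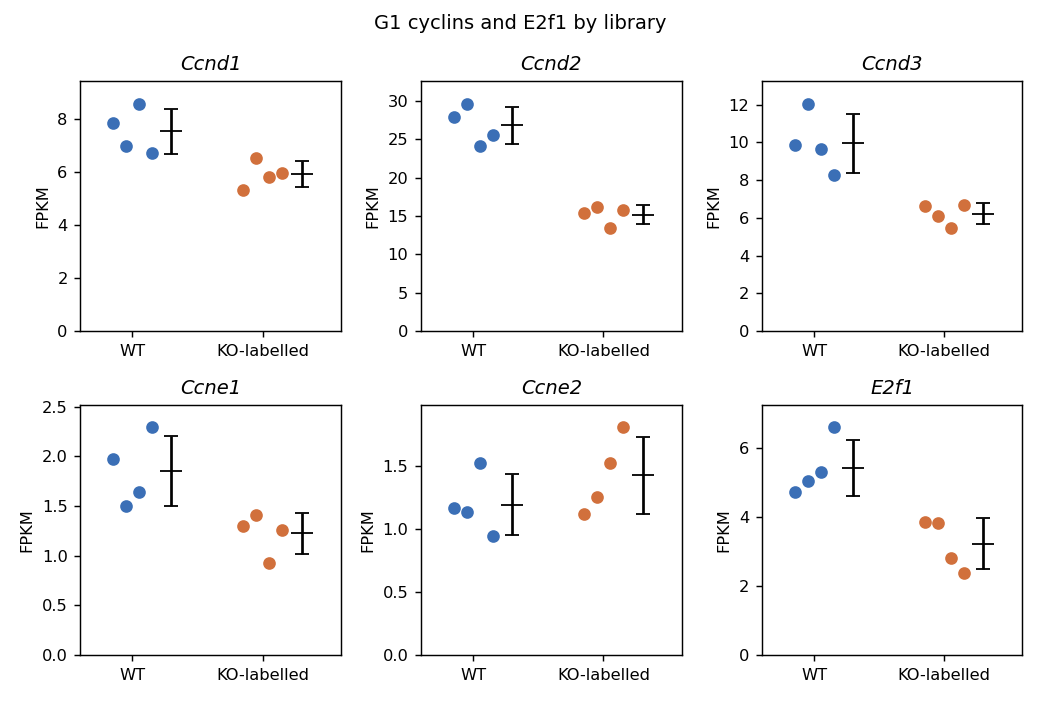
FPKM in each library (points) with the group mean and SD (bars to the right of the points) for the 6 regulators of S-phase entry, WT-labelled in blue and KO-labelled in orange, each panel on its own linear axis from 0. The KO-labelled points lie below all WT-labelled points for Ccnd1, Ccnd2, Ccnd3, Ccne1 and E2f1, and the groups overlap for Ccne2.

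The MCM proteins form the helicase that is loaded at replication origins. Mcm7 (ENSMUSG00000029730, chr5:138164583-138172422), the highest of the 6 in mean FPKM, was at 4.69, 3.77, 4.28 and 5.19 FPKM in the WT-labelled and 6.06, 4.77, 4.61 and 5.09 FPKM in the KO-labelled libraries. The ranges overlapped, and the log2 difference of 0.18 ± 0.11 (SE; adjusted p = 0.263) was 0.43 (adjusted p = 0.0232) with equal listed-gene sums. Mcm3 was at 3.04, 2.97, 3.44 and 7.02 FPKM in the WT-labelled libraries and at 4.13, 4.89, 3.87 and 4.16 FPKM in the KO-labelled ones. WT-labelled library 4 alone exceeded the KO-labelled values, and the other three WT-labelled libraries were below all of them. The Mcm3 log2 difference was 0.12 (adjusted p = 0.725). Mcm6 had the widest WT-labelled range of the helicase genes, at 1.53, 1.53, 2.98 and 5.74 FPKM against 4.08, 4.0, 2.79 and 3.51. Its log2 difference of 0.40 ± 0.34 (SE; adjusted p = 0.401) was the highest among the 28 tested genes of replication and mitosis. Mcm2, Mcm4 and Mcm5 had log2 differences of -0.18, 0.14 and -0.08, none of which passed. The 6 genes summed to 17.1, 14.99, 18.8 and 29.8 FPKM in the WT-labelled and 23.3, 22.8, 19.3 and 20.7 FPKM in the KO-labelled libraries.

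PCNA is the sliding clamp of the replicative polymerases, and the products of Rrm1, Rrm2, Tyms and Tk1 supply deoxynucleotides. Pcna (chr2:132249162-132253314), on 558 to 1283 reads, was at 16.5, 10.1, 10.1 and 21.7 FPKM in the WT-labelled libraries and at 15.5, 16.1, 15.5 and 12.8 FPKM in the KO-labelled ones. The WT-labelled libraries spanned the KO-labelled values on both sides, with an SD of 5.61 against 1.49. The group means were 14.6 and 14.98 FPKM, and the log2 difference was 0.10 (95% interval -0.43 to 0.635, adjusted p = 0.77). Rrm2, the regulated subunit of ribonucleotide reductase, was at 1.81, 1.49, 2.19 and 3.43 FPKM against 2.75, 2.80, 2.52 and 2.71, again with only WT-labelled library 4 above the KO-labelled range. Its log2 difference was 0.27 (adjusted p = 0.301). Rrm1, Tyms and Tk1 had differences of -0.02, -0.10 and -0.16 and passed no threshold. Tyms was nearly level in the WT-labelled libraries, at 0.850 to 0.902 FPKM.

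CDK1 with cyclins A2, B1 and B2 drives entry into mitosis. Cdk1 (ENSMUSG00000019942, chr10:69335146-69352938) was at 1.22, 0.888, 1.14 and 2.33 FPKM in the WT-labelled and 1.21, 1.27, 0.987 and 1.17 FPKM in the KO-labelled libraries. The KO-labelled values fell within the WT-labelled range, and the log2 difference was -0.14 (95% interval -0.61 to 0.33, adjusted p = 0.637). Ccnb2 (ENSMUSG00000032218, chr9:70407692-70421547) was at 2.84, 1.94, 3.36 and 6.77 FPKM against 4.46, 2.69, 3.32 and 3.17, with a difference of -0.01 (95% interval -0.70 to 0.68, adjusted p = 0.981). Ccna2 had a log2 difference of -0.22 and Ccnb1 of -0.39, and neither passed. WT-labelled library 4 held 2.32 times the mean of the other three WT-labelled libraries in the sum of these 4 genes.

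The mitotic kinases PLK1, Aurora A and Aurora B, the Aurora B partner survivin (Birc5) and the checkpoint kinases BUB1 and BUBR1 (Bub1b) order spindle assembly and chromosome attachment. Aurkb (chr11:69045647-69051664) was at 1.82, 1.59, 1.78 and 3.44 FPKM in the WT-labelled libraries and at 2.12, 2.41, 1.81 and 1.21 FPKM in the KO-labelled ones. The groups overlapped, with a log2 difference of -0.13 (95% interval -0.66 to 0.40, adjusted p = 0.69). Plk1, Aurka, Birc5, Bub1 and Bub1b had log2 differences from -0.28 to 0.11 and none passed. Bub1 had the fewest reads of the 35 in its lowest library, 38 to 143 over the libraries, and its WT-labelled SD of 0.458 FPKM was 0.0691 without WT-labelled library 4. Of the partners of the anaphase-promoting complex, Ube2c (chr2:164769898-164778822), its ubiquitin-conjugating enzyme, was at 2.08, 1.78, 3.26 and 5.91 FPKM against 2.19, 2.13, 1.62 and 2.52. Its log2 difference of -0.41 was the lowest of those 28, with a wide 95% interval of -1.095 to 0.27 (adjusted p = 0.328). Cdc20, the activator of the complex in mitosis, had a difference of -0.30 (adjusted p = 0.396).

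Of the spindle and chromosome genes, Mki67, which encodes the Ki-67 antigen used to mark cycling cells, and Top2a, the topoisomerase that untangles sister chromatids, were covered best. Mki67 (ENSMUSG00000031004, chr7:135689784-135716361), on 459 to 1239 reads, was at 2.67, 1.90, 3.88 and 5.01 FPKM in the WT-labelled and 3.71, 3.33, 3.03 and 3.04 FPKM in the KO-labelled libraries. All 4 KO-labelled values lay inside the WT-labelled range, and the log2 difference was 0.03 (95% interval -0.495 to 0.56, adjusted p = 0.925). Top2a (ENSMUSG00000020914, chr11:98992943-99024189) was at 2.12, 1.33, 3.00 and 4.32 FPKM against 2.73, 2.54, 2.46 and 2.55. Its KO-labelled SD was 0.11 FPKM and its WT-labelled SD 1.28, and the log2 difference was 0.03 (95% interval -0.55 to 0.62, adjusted p = 0.936). Kif11, the motor that separates the spindle poles, Nusap1, a spindle microtubule protein, and the kinetochore motor Cenpe had differences of 0.03, 0.11 and 0.015. Cenpf was at 0.246 to 0.543 FPKM in the WT-labelled and 0.259 to 0.358 FPKM in the KO-labelled libraries, with an exact two-sided permutation p of 0.2 (n = 4 each).

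**Figure D3:**
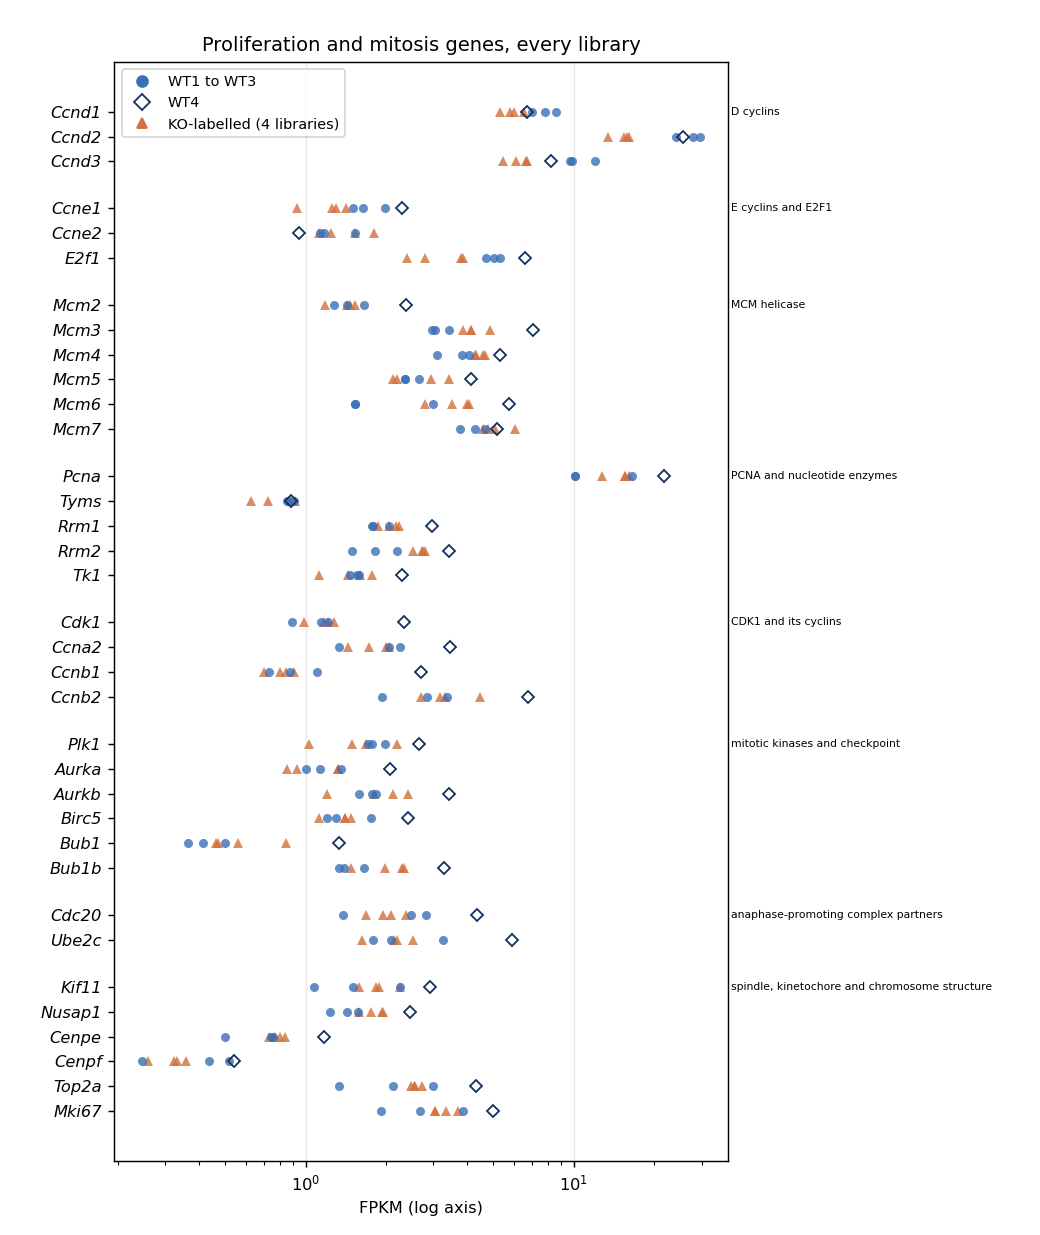
Level of each of the 35 genes in each of the 8 libraries on a log axis of FPKM, in order of role, with WT-labelled libraries 1 to 3 as circles, WT-labelled library 4 as an open diamond and KO-labelled libraries as triangles. The diamond is the highest point for 27 of the 29 genes of replication and mitosis, and all triangles lie below all WT-labelled points for 5 genes, Ccnd1, Ccnd2, Ccnd3, Ccne1 and E2f1.

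One library stood apart for the 29 replication and mitosis genes. WT-labelled library 4 was the highest of the 8 libraries for 27 of the 29, against 12.2% of all tested genes, and exceeded 1.5 times the mean of the other three WT-labelled libraries for 23 of the 29, against 9.8% of all tested genes. Its ratio to that mean had a median of 1.78 over the 29 genes and ran from 1.013 to 3.13. The summed level of the 29 genes was 68.0, 52.7, 70.1 and 118 FPKM in the WT-labelled and 79.1, 78.2, 69.3 and 69.8 FPKM in the KO-labelled libraries. The 4 KO-labelled sums were close together, and the ratio of group means was 0.959 with WT-labelled library 4 and 1.16 without it. The sum of the 6 regulators of S-phase entry, with Ccnd2 as its largest part, was 53.4, 56.3, 50.9 and 50.4 FPKM against 33.7, 35.2, 30.0 and 33.8. WT-labelled library 4 was not the highest for any D-type cyclin, but it was the highest of the 8 for Ccne1 and E2f1, at 1.34 and 1.31 times the mean of the other three.

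Without WT-labelled library 4, Mcm3 (log2 difference 0.38, adjusted p = 0.021), Mcm6 (0.74, adjusted p = 0.0326) and Rrm2 (0.465, adjusted p = 0.0185) were called higher in the KO-labelled libraries. These were 3 of the 34 tested members, against 13.4% of all genes tested. On the other side Ccnd1, Ccnd2, Ccnd3 and E2f1 were called lower, against 19.4% of all genes, and Ccne1 was not (-0.36, adjusted p = 0.0793). The library had been set apart by these same values, as the highest for 27 of the 29 replication and mitosis genes. Leaving it out lowers the WT-labelled mean of all 29 by construction, so the 3 higher calls are no separate support for a difference. Without that library, the median log2 difference of the tested replication and mitosis genes was 0.13, and that of the regulators of S-phase entry -0.48. The median of all genes was then -0.016, below that of the replication and mitosis genes. With equal listed-gene sums and all libraries kept, the 2 medians were 0.17 and -0.31, where the median of all genes was 0.21, so that the median of the replication and mitosis genes was not above that of all genes.

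**Figure D4:**
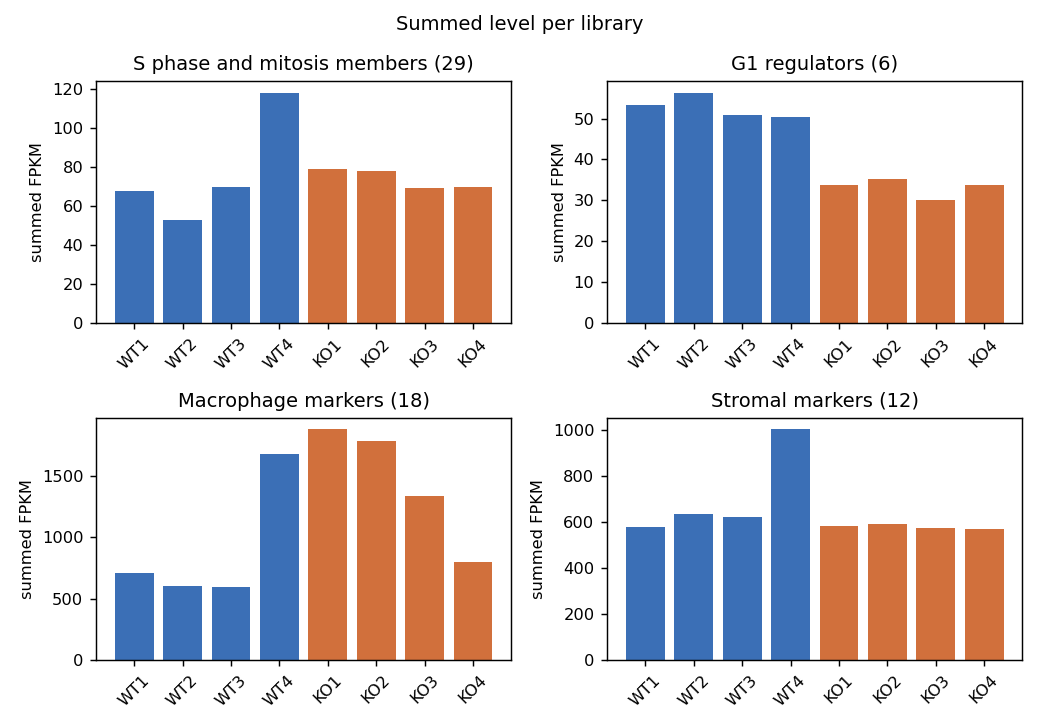
Summed FPKM in each library (bars from 0, WT-labelled in blue and KO-labelled in orange) of the 29 replication and mitosis genes, the 6 regulators of S-phase entry (titled G1 regulators), macrophage markers and stromal markers. The regulator sums are 50.4 to 56.3 in WT-labelled and 30.0 to 35.2 in KO-labelled libraries, and WT-labelled library 4 is above the other WT-labelled libraries in the other three panels, with 118 FPKM for replication and mitosis, 1680 for macrophage and 1005 for stromal markers.

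Markers of other cell types also differed between these libraries. Summed macrophage markers were at 707, 598, 594 and 1680 FPKM in the WT-labelled and 1877, 1779, 1331 and 800 FPKM in the KO-labelled libraries, with none of the 17 tested markers at 0 and 7 higher and none lower in the KO-labelled group. WT-labelled library 4 was thus in the range of the KO-labelled libraries for this sum, but not for each marker. It was above every KO-labelled library for Gpnmb (82.4 against 7.30 to 14.2 FPKM) and below every one for Fcgr1 (4.04 against 8.24 to 15.5 FPKM). Without that library 14 of the 17 were called higher. Stromal markers were at 577 to 637 FPKM in WT-labelled libraries 1 to 3, 1005 in library 4 and 569 to 592 in the KO-labelled group (1 of 12 higher, 4 lower; 2 higher and 0 lower with equal listed-gene sums). Monocyte and neutrophil markers summed to 16.2 to 24.4 against 37.0 to 43.2 FPKM (5 of 7 higher, with Retnlg and Cxcr2 at 0 in some libraries). The 15 T and NK cell markers summed to 6.6 to 14.8 against 15.5 to 24.3 FPKM (4 of 6 tested higher). The 2 uncalled ones, Trac (limma log2 difference -0.93, adjusted p = 0.0826) and Cd247 (-0.54, adjusted p = 0.0514), went the other way. Adipocyte markers, which identify the labelled tissue, summed to 4937 to 7999 against 2865 to 3936 FPKM (11 of 12 lower) and endothelial markers to 323 to 444 against 218 to 256 FPKM (10 of 12 lower). B and plasma cell markers were at 40.2 to 105 against 25.0 to 43.3 FPKM (1 of 3 higher, 1 lower) and mesothelial markers at 22.3 to 69.4 against 49.4 to 74.2 FPKM (0 of 9 called). With equal listed-gene sums, 11 macrophage markers were higher and 7 adipocyte and 7 endothelial markers were lower, no B and plasma cell marker was lower and 1 mesothelial marker was higher. The part of these cell types in the levels of the cyclins, E2f1 and the replication and mitosis genes was not tested.

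The promoter sequences show the motifs that cell cycle genes are known for. The CHR (cell cycle genes homology region) and CCAAT boxes mark promoters of mitotic genes bound by the DREAM complex and NF-Y, and E2F sites mark those of S phase genes. RefSeq windows on GRCm38.p6, from 250 bases before to 50 after a start site, were matched by symbol for 29 of the 35 genes, with 31 windows in all. Sequences are on the gene's strand, and capitals mark a motif on either strand. The CHR was searched as TTTGAA, the E2F site as TTTCCCGC, TTTCGCGC, TTTGCCGC or TTTGGCGC, and the box as CCAAT, each on both strands. The Cdk1 window (chr10:69352863-69353162, minus strand) is shown whole because it holds all 3 motifs, and its start site is 26 bases inside the GENCODE M21 gene. For Ccnb2 (chr9:70421505-70421664, minus strand), Mcm6 (chr1:128359656-128359815, minus strand) and Ccne1 (chr7:38107441-38107600, minus strand), the last 160 bases are shown as examples of a mitotic gene, a replication gene and a called regulator.
Cdk1: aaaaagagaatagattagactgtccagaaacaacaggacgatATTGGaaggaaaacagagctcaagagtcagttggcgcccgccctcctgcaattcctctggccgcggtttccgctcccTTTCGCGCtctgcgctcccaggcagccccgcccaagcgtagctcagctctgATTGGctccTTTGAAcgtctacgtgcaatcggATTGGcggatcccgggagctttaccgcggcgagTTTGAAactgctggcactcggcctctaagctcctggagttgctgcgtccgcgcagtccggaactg
Ccnb2: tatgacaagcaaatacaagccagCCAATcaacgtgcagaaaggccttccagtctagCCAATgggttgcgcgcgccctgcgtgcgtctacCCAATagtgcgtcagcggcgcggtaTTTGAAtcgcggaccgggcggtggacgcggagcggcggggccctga
Mcm6: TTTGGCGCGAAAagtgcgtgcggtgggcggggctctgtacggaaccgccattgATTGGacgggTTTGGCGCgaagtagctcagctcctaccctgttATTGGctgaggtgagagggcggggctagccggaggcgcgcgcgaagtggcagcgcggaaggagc
Ccne1: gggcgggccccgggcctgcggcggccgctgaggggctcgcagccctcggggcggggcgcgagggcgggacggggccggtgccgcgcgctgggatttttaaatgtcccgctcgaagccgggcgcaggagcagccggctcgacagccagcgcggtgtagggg
In these windows Ccnb2 has CCAAT boxes and a CHR close to its start site, Mcm6 has E2F sites, a pair of which overlap on opposite strands, and inverted CCAAT boxes, and no letters are capitalised in Ccne1.

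Over the windows of the 35 genes, the CHR letters were in 12 of 31 (38.7%), against 17.9% of the 32851 RefSeq windows of the same length. CCAAT was in 24 of 31 (77.4%), against 37.4% of all windows. An E2F site was in 5 of 31 (16.1%), against 2.3%. Both the CHR and CCAAT were in 12 of 31 (38.7%), against 7.0%. All 12 windows with the CHR belonged to the replication and mitosis genes (12 of 27, or 44.4%), and none of the 4 windows of the regulators of S-phase entry (Ccnd3 with 2, Ccne1 and E2f1) held the CHR or E2F letters, while 1 held CCAAT. Among the replication and mitosis windows, 85.2% held CCAAT and 18.5% an E2F site. Of the 31 windows 26 had their start site within 100 bases of the GENCODE M21 gene start. The RefSeq start site lay 134 bases inside the M21 gene for Pcna, 466 for E2f1, 539 and 1156 for the 2 windows of Mcm7 and 88416 for one of Ccnd3, so those 5 windows are not at the outermost annotated start. The E2f1 window and that Ccnd3 window lie wholly inside the M21 gene. Letters missing from them therefore say nothing of the promoter at the outermost start, and E2F sites there were not searched. Windows for Ccnd1, Ccnd2, Ccne2, Mcm4, Ccna2 and Aurkb were not used here. A match is a description of letters and not of binding, and the groups of genes were small.

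**Figure D5:**
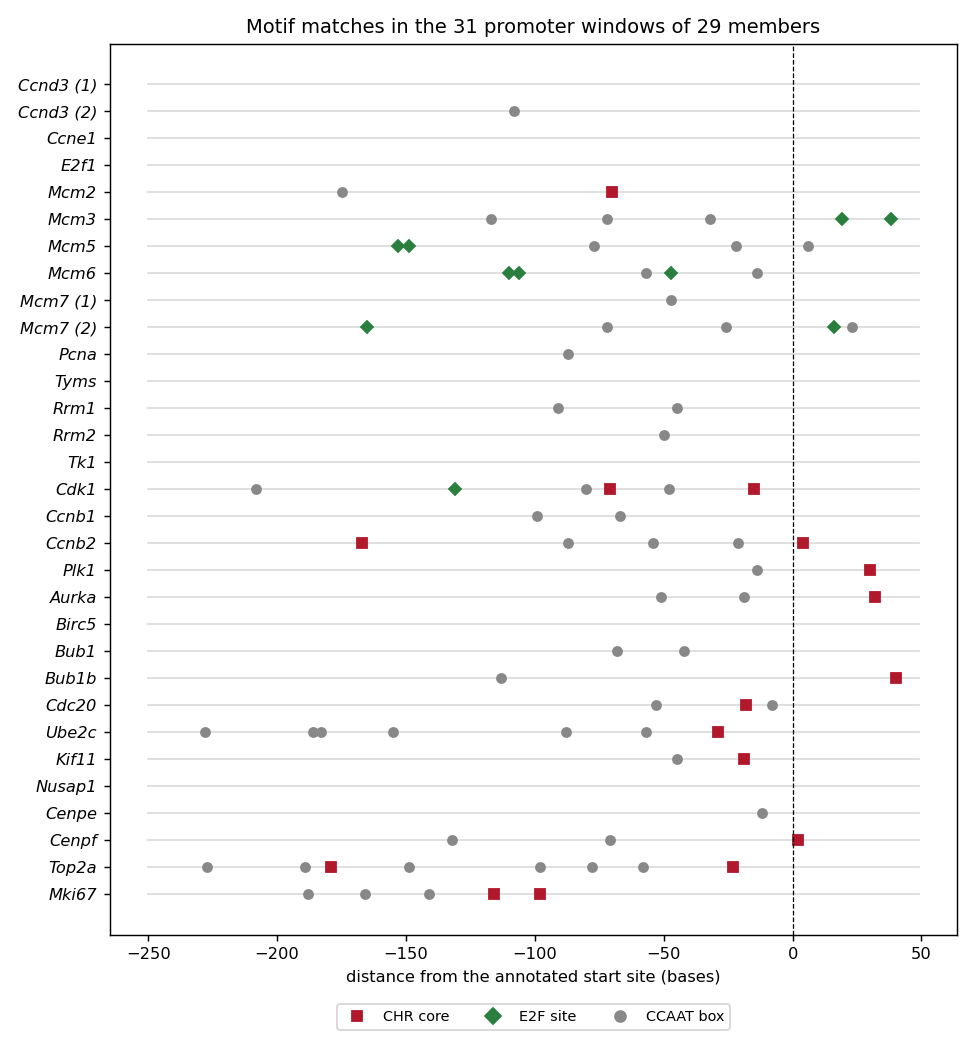
Positions of the CHR letters (squares), E2F sites (diamonds) and CCAAT boxes (circles) in the 31 promoter windows of 29 genes, 1 window a line, as the distance in bases of the motif's leftmost base from the RefSeq start site. The CHR is on 12 lines and E2F sites on 5, all of them replication or mitosis genes, and the 4 lines of Ccnd3, Ccne1 and E2f1 hold a single CCAAT box. The E2f1 line and 1 Ccnd3 line show windows inside the GENCODE M21 gene, not the promoter at its outermost start.

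Other cell cycle genes were taken from 9 lists with 186 genes, of which 165 were tested, 11 (6.67%) were higher and 21 (12.7%) were lower, with a median log2 difference of -0.07. Both shares were under the 11.7% and 18.6% of all genes. With equal listed-gene sums the balance turned to 34 higher (20.6%) and 7 lower (4.24%), again under the 29.3% and 8.19% of all genes with that scaling, so the directions of the smaller differences below depend on the scaling. The CDK inhibitors and antiproliferative genes had the most calls, 4 higher and 5 lower of 12. Cdkn1c, which encodes the CDK inhibitor p57, was at 3.41, 3.62, 3.59 and 3.09 FPKM in the WT-labelled libraries and at 7.61, 10.2, 11.9 and 11.8 FPKM in the KO-labelled ones (log2 difference 1.45 ± 0.14 SE, adjusted p = 0.000199). Its KO-labelled values were all far above its WT-labelled ones. Cdkn1a, which encodes the CDK inhibitor p21, went the other way, from 34.6, 24.0, 24.8 and 32.5 to 13.6, 9.39, 8.08 and 8.73 FPKM (-1.51 ± 0.18 SE, adjusted p = 0.000646). The genes for 2 inhibitors of CDK4 and CDK6 were lower as well. Cdkn2b was at 10.5 ± 2.19 against 3.78 ± 0.664 FPKM (SD, n = 4 each; adjusted p = 0.000728) and Cdkn2c at 36.2 ± 7.08 against 20.01 ± 3.08 FPKM (adjusted p = 0.00463). The antiproliferative genes Tob1 and Tob2 moved in opposite directions, Tob1 from 38.8 ± 4.45 to 19.3 ± 2.24 FPKM (adjusted p = 0.00047) and Tob2 from 7.46 ± 1.25 to 16.3 ± 1.38 FPKM (adjusted p = 0.000453). Cdkn1b and Btg1 were higher by 0.31 and 0.60 on the log2 scale and Btg2 had a difference of -0.53 (adjusted p = 0.0149, 0.00341 and 0.0108).

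Among the other CDKs and cyclins 1 of 11 was called, Wee1, the kinase that holds CDK1 inactive. It was at 1.76, 2.69, 2.65 and 4.18 FPKM in the WT-labelled and 6.06, 5.29, 4.60 and 3.64 FPKM in the KO-labelled libraries, with the ranges overlapping at WT-labelled library 4 (log2 difference 0.73 ± 0.22 SE, adjusted p = 0.0378). Cdk4, Cdk2 and Cdk6, the partners of the D-type and E-type cyclins, had differences of -0.12, -0.135 and 0.48 and did not pass. In the list of retinoblastoma, E2F and DREAM genes 1 was higher and 3 were lower of 18. E2f5, a repressor E2F, had a log2 difference of 0.49 (adjusted p = 0.0122). E2f3, an activator, had -0.35 (adjusted p = 0.0159), E2f7, an atypical repressor, -0.54 (adjusted p = 0.016), and Tfdp1, the partner of E2F proteins, -0.25 (adjusted p = 0.0365), which became 0.01 with equal listed-gene sums. E2f7 was near the level for testing, with group means of 0.724 FPKM (WT-labelled) and 0.343 FPKM (KO-labelled). It reached that level only through the WT-labelled libraries, so its call is weak support. Rb1, Foxm1 and Mybl2 had differences of -0.21, 0.09 and 0.09 and did not pass.

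Of the origin licensing genes 2 of 18 were lower, Gins4 (-0.44, adjusted p = 0.00623) and Orc2 (-0.30, adjusted p = 0.0183). The replication fork list had 3 higher and 2 lower of 25. Pole3, a histone-fold subunit of DNA polymerase epsilon, was at 16.0, 19.5, 14.3 and 13.6 against 8.73, 7.56, 7.65 and 8.59 FPKM (-0.91 ± 0.12 SE, adjusted p = 0.000828), and its groups were far apart. Rfc4 (0.59, adjusted p = 0.00558), a clamp loader subunit, and Rnaseh2a (0.46, adjusted p = 0.00896), which removes RNA from DNA, were higher with Prim1, and Top1 had a difference of -0.24 (adjusted p = 0.0303) but at 0.008 with equal listed-gene sums. The nucleotide supply list had 2 higher and 2 lower of 18, namely Dck (0.64, adjusted p = 0.0138) and Samhd1 (0.72, adjusted p = 0.0188), and Mthfd1 (-0.44, adjusted p = 0.0208) and Umps (-0.31, adjusted p = 0.0497). Dck salvages deoxynucleosides and Samhd1 degrades deoxynucleotides.

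The calls in the 3 mitotic lists were in the lower direction, as 18.6% of all genes were, and with equal listed-gene sums they numbered 1 lower in the checkpoint and kinetochore list and 1 higher in each of the other two. In the spindle checkpoint and kinetochore list these were 2 of 17, Spc25, a subunit of the NDC80 complex, from 2.33, 1.53, 1.55 and 2.76 to 1.08, 0.973, 0.881 and 0.9502 FPKM (-0.76 ± 0.165 SE, adjusted p = 0.00954), and Bub3 (-0.245, adjusted p = 0.0227; 0.007 with equal listed-gene sums). In the spindle and cytokinesis list 1 of 26 was called, the centrosomal kinase Nek2 (-0.38, adjusted p = 0.0385), and it did not pass without WT-labelled library 4 (adjusted p = 0.0768). That library was the highest of the 8 for 12 of the 17 and 20 of the 26 genes. The list of the anaphase-promoting complex and its partners had 4 of 20 lower, Cks1b (-0.45, adjusted p = 0.00393), Cdc16 (-0.31, adjusted p = 0.0116), Anapc16 (-0.375, adjusted p = 0.0197) and Cks2 (-0.605, adjusted p = 0.0432). Cdc16 and Anapc16 are subunits of the complex, and the CKS proteins bind cyclin-dependent kinases. Of the 26 called list genes that were recomputed under every setting, 19 lost the call in at least 1 setting. With equal listed-gene sums 13 did not pass, namely E2f3, Tfdp1, Gins4, Orc2, Top1, Mthfd1, Umps, Bub3, Nek2 and the 4 of the anaphase-promoting complex list. E2f5, E2f7, Rfc4 and Dck passed there and without any single library. In other settings their largest adjusted p-values were 0.0587, 0.0679, 0.0699 and 0.128. Leaving out single libraries ended the call of 11, at adjusted p-values from 0.0504 to 0.128. Wee1 was lost without any one of WT-labelled libraries 1 to 3 or KO-labelled libraries 1 to 3, Nek2 without any one but WT-labelled library 3, and Tfdp1, Umps and Cks2 without any one but WT-labelled library 2. Top1 was lost without WT-labelled library 1 or 3 or KO-labelled library 1, 3 or 4, and Bub3 without WT-labelled library 1 or 2 or KO-labelled library 2, 3 or 4. Anapc16 and Mthfd1 were lost without WT-labelled library 1 or 2 or KO-labelled library 2 or 3, Orc2 without WT-labelled library 1 or KO-labelled library 3, and Samhd1 without WT-labelled library 1 or 2.

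Reads could be shared with other genes for some of the 35. Exons of 11 overlap a gene on the opposite strand in GENCODE M21, among them Ccnd1, Ccnd2 and Ccnd3 but not Ccne1 or E2f1, and whether counting used strand is not given here. For those 11, reads of the gene and of its antisense partner cannot be told apart in the stretches where their exons overlap. How much of each gene's level comes from those stretches was not tested. Pseudogenes named after Ccnd3, Pcna, Tyms, Ccnb1 and Ccnb2 are also annotated.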

How the data were processed

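The deposited table holds FPKM values that the authors made per gene from bulk RNA-seq; the submitters' processing notes name HISAT2 2.0.5, featureCounts and the mm10 build, while the annotation release and strand setting are not given in the sources used here. Its column names match the labels of the 8 libraries. The test was limma 3.58.1 in R 4.3.3 on log2(FPKM + 0.5), with its trend and robust options and all 8 libraries in 1 fit, over the 14400 genes with a mean of at least 0.5 FPKM, with Benjamini-Hochberg adjustment over all of them and a call at an adjusted p below 0.05. A fold change on this scale understates the change of low genes. SDs are over libraries, SEs and 95% intervals are from limma, and single-gene permutation tests are exact and two-sided. On simulated data with 200 of 14400 genes changed, the fit for this comparison called 74% of those given a log2 change of 1 and 36% of those given 0.5, and 6.78% of its calls were false. The data had far more calls, 1689 higher and 2683 lower, which makes the adjusted threshold less strict than in the simulation. The simulated shares are therefore a check of the fit and not the power of this comparison.

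Whole reads were recovered from the FPKM values with GENCODE M21 exon lengths, which 28279 gene identifiers (99.94%) matched. Of the values between 0.5 and 200 reads, 97.9% came out within 0.02 of a whole read, which let 98.55% of genes be used. These reads gave the depths and an alternative test with voom. Counting error alone does not cover the spread between libraries. Promoter windows are from RefSeq on GRCm38.p6, with positions counted from 1, and motif letters were searched in Python 3.11.15.

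The 35 genes, the 9 pathway lists and the 12 marker lists were chosen with earlier results of these data known, so no p-value was adjusted over a list alone. Values in every library are printed for called members, the member of each role with the highest mean, Mki67, Top2a and Cdk1, Cul3 or its group means, and the called genes of each list that lead it, with further genes chosen after their values were seen (Mcm3, Mcm6, Rrm2, Ccne2, Cdkn2b, Cdkn2c). In all, 22 alternatives were run. The replicate numbers in the labels do not pair the libraries.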

Additional observations from a re-analysis of the deposited data

Results flagged for a closer look

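Within the groups of 4 libraries, 6 of the 70 sets of member values had one library whose gap to its nearest neighbour, as a share of the group's range, was above Dixon's critical value at 95%, and chance gives about 1 in 20. In all 6 it was WT-labelled library 4, on the high side. Mcm3 was at 7.02 FPKM there (gap over range 0.884) and Mcm5 at 4.14 FPKM (0.831). Tk1 was at 2.28 FPKM (0.858), Aurkb at 3.44 FPKM (0.872), Bub1 at 1.34 FPKM (0.859) and Bub1b at 3.28 FPKM (0.839). None of the 22 sets of summed levels passed that value. The same library held the highest macrophage and stromal marker sums of the WT-labelled group, 1680 and 1005 FPKM, and their part in these values was not tested.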

How the results depend on the processing

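The 22 alternatives changed the pseudocount, the filter on low values, the scaling, the model or the libraries used. Ccnd2 and Ccnd3 kept their direction and call in all 22, no called member changed sign, 21 of the 29 uncalled members changed sign without a call in some setting, and 5 uncalled members gained a call in at least one (Mcm3, Mcm6, Mcm7, Rrm2 and Bub1b). Members called lower numbered 3 without a filter, 2 with equal listed-gene sums, 2 with scaling to reads in listed genes, 3 with median-of-ratios scaling and 3 without WT-labelled libraries 1 and 2, against 5. Members called higher numbered 1 (Mcm7) under each of the first 2 of those scalings and 3 without WT-labelled library 4 and KO-labelled library 4, against 0. Leaving out one library gave 3 to 5 lower and 0 to 3 higher members, 1862 to 2794 lower and 1100 to 1938 higher genes. Over all genes the higher and lower counts were 4217 and 1180 with equal listed-gene sums, 4184 and 1266 with scaling to listed reads, and 729 and 1029 without WT-labelled libraries 1 and 2. Under the first of these, Tfdp1, Top1 and Bub3 changed sign to 0.01, 0.008 and 0.007, Cul3 was at 0.356 (adjusted p = 0.0488; 0.333 and 0.0399 with listed reads), and the ratio of summed levels was 0.748 for the D-type cyclins and 0.835 for the E-type cyclins with E2f1. These scalings divide by a listed-gene total that was a smaller share of the KO-labelled libraries, which moves every gene up. With a replicate block, 1113 genes were higher and 2 members, Ccnd2 and Ccnd3, were lower. Libraries that share a number had correlations of deviations from -0.317 to 0.169 over 4 pairs, other pairs -0.231 to 0.208, and 1 of 4 KO-labelled libraries correlated best with its own number. For the other changes the cause was not tested. Bub1, Plk1, Aurka and Ccne1 had the fewest reads in their lowest library, at 38, 55, 57 and 60, and how depth limits their calls was not tested.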

Other observations

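A few transcripts of neighbouring or distant tissues were uneven between libraries. The epididymal gene Crisp1 was at 203 FPKM in KO-labelled library 1 and at most 7.92 FPKM in the other 7, and Lcn5 was at 42.0 FPKM in WT-labelled library 2 and at most 0.495 elsewhere. Epididymal markers summed to 53.9 FPKM in WT-labelled library 2, 215 in KO-labelled library 1 and at most 8.79 in the others. Liver transcripts summed to 19.95 to 484 FPKM in the WT-labelled and 7.36 to 20.6 FPKM in the KO-labelled libraries, with 4 of 8 lower. Male germ cell markers summed to 5.38 to 10.5 against 2.49 to 34.7 FPKM, with Sycp3, a meiotic chromosome protein, the sole call of 5, at 5.32 to 8.92 FPKM against 1.57 to 2.81 FPKM. Transcripts of the mitochondrial chromosome summed to 17697 to 24671 against 9567 to 16091 FPKM, with 8 of 9 lower. The mitochondrial sums did not overlap between the groups. Gene by gene, 6 of the 9 had every KO-labelled library below every WT-labelled one, against 19.1% of all tested genes. With equal listed-gene sums 5 of the 9 were lower. WT-labelled library 2 was the lowest of the 8 for 18 of the 29 replication and mitosis genes.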
